A study of Mus musculus with 4 samples.

Results

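Muscle 1 is the population of 262 cells that the deposited cell annotation names Muscle, taken here by that number of cells. It made up 2.95% of the 8880 cells of the series and is set beside Muscle 2, the other muscle population of that annotation, which held 240 cells. All cells came from male FVB/NJ mice, adults of 10 to 12 weeks, without any treatment or genetic change. The caput, corpus and cauda of the epididymis and the vas deferens of 4 mice were pooled by region and dissociated, and each region gave 1 droplet library that counts unique molecular identifiers (UMIs) near the 3′ end of polyadenylated RNA. With 1 library per region no value has a biological replicate, so no test was run, no p-value is given, and each interval is a 95% interval for counting error alone.

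Smooth muscle surrounds the duct and forms the thick wall of the vas deferens, where it contracts under sympathetic nerves to move sperm at ejaculation. Contraction starts when calcium enters through the plasma membrane or leaves the sarcoplasmic reticulum, binds calmodulin and activates myosin light chain kinase, and it ends as calcium pumps and exchangers clear the ion and myosin phosphatase removes the phosphate. The messages for ribosomal proteins and for small subunits of the respiratory chain are short and, in most cells, among the most abundant.

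The name Muscle held against the markers, by unequal margins. *Mylk*, the myosin light chain kinase, was the most abundant message of Muscle 1, followed by *Acta2* and *Actg2*, the alpha and gamma actins of smooth muscle. *Mylk* had 24381 UMIs per 1000000 UMIs of the population (UPM) in Muscle 1 and 19939 in Muscle 2, and 2508 in StromalIL6, the highest of the non-muscle populations with at least 20 cells. Each UMI stands for 1 molecule, so levels were not scaled by length, although capture and unique alignment still differ between genes. *Myh11*, the smooth muscle myosin heavy chain (chromosome 16, 14194527 to 14292188 in GRCm38), reached 9794 UPM, 6.40 times its level in StromalIL6. *Acta1*, the skeletal alpha actin (chromosome 8, 123891758 to 123894775), reached 3105 UPM, 14.5 times its level in StromalIL6. *Camk2g*, a calcium and calmodulin dependent kinase (chromosome 14, 20734873 to 20794157), and *Pcdh7*, a protocadherin (chromosome 5, 57716145 to 58133236), were lower, at 1057 and 965 UPM. They stood 3.91 and 4.84 times above StromalIL6. The study picked both on these cells for Muscle 1, so they are no independent support for the name. In Muscle 2 they were at 362 and 213 UPM, against 270 and 199 in StromalIL6. After 500 UMIs were drawn from each cell, which left out 41 cells of Muscle 1, *Myh11* was seen in 95.5% of its cells against 1.79% of endothelial cells.

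**Figure D1:**
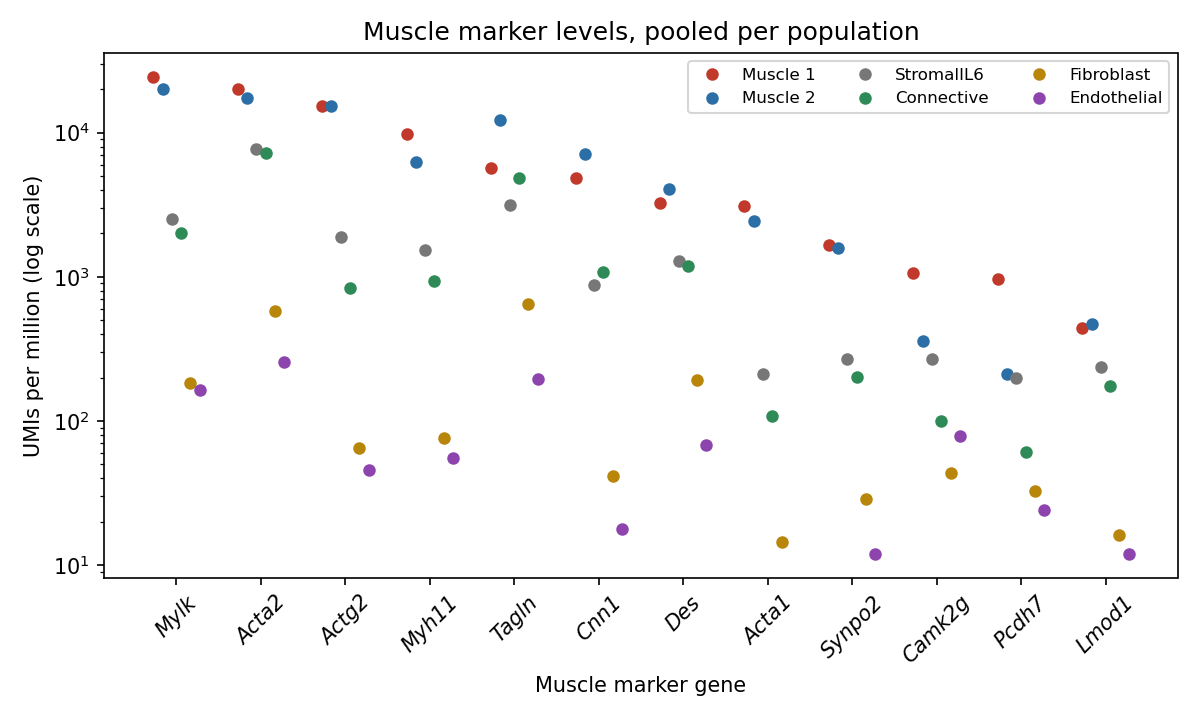
Levels of 12 muscle marker genes in UPM on a log scale, pooled over the cells of Muscle 1, Muscle 2 and 4 other populations of the deposited annotation, 1 point per population, with levels of 0 not drawn. Muscle 1 and Muscle 2 lie close together for *Actg2*, at 15367 and 15395, and apart for *Pcdh7*, at 965 and 213.

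Markers of most other cell types were sparse, and those of the pericyte and vascular muscle list were not. Clear cell, adipocyte, red cell and sperm markers were at 0 UMIs in Muscle 1. Markers of basal cells, endothelium and immune cells gave 5, 5 and 2 UMIs, and *Ptprc*, *Cd3e*, *Trp63*, *Kdr* and *Cldn5* were at 0. Epithelial markers gave 38 UMIs over all 7 genes, or 126 UPM, against 103 UPM in Muscle 2 and 9788 in the population that had most. Fibroblast markers gave 287 UPM against 142 in Muscle 2 and 22044 at the highest, nearly all of it *Dcn* and *Col1a1*. The pericyte and vascular muscle list reached 875 UPM against 421 in Muscle 2 and 840 in the highest non-muscle population, and 156 of the 262 cells had a UMI of it. In that list *Mcam*, *Cspg4*, *Kcnj8* and *Abcc9* had 125, 63, 49 and 24 UMIs and *Rgs5* 4, while *Notch3* and *Pdgfrb* were at 0. The part of these other transcripts in the differences below was not tested. From the skeletal muscle list, *Ckm*, the muscle creatine kinase, and *Tnnc2*, the fast troponin C, reached 1311 and 1014 UPM, whereas *Myh2*, *Myh7*, *Neb* and *Mb* were at 0.

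Most Muscle 1 cells came from the vas deferens. The population held 230 cells of the vas deferens library, 27 of the cauda, 5 of the corpus and 0 of 1433 of the caput, where the limit of 3 cells is a share of 0.209% and the Clopper-Pearson upper bound 0.257%. These were 6.56% of vas deferens cells (95% Clopper-Pearson interval 5.76% to 7.43%), 1.67% of cauda cells and 0.215% of corpus cells (0.0699% to 0.501%). Muscle 2 was spread in much the same way, with 207, 31 and 2 cells. Muscle 1 therefore made up 52.6% of the muscle cells of the vas deferens (47.8% to 57.4%) and 46.6% of those of the cauda (33.3% to 60.1%). In the annotation's first round of clusters, 260 of the Muscle 1 cells fell in 1 cluster, together with 69 of Muscle 2, and the remaining 171 of Muscle 2 in another.

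Muscle 1 cells were shallow. The median cell held 1080.5 UMIs and 697 genes, with quartiles of 649 and 1497 UMIs and a range from 266 to 3539. The median cell of Muscle 2 held 5423.5 UMIs and 1868 genes. By library the medians of Muscle 1 were 827 (corpus), 948 (cauda) and 1088.5 (vas deferens), and those of Muscle 2 were 2923, 7511 and 4883. Muscle 1 was the lower in each of the 3 libraries, although the corpus held only 5 cells of Muscle 1 and 2 of Muscle 2. The study stated, without showing data, that its muscle subclusters did not differ much in UMI coverage. These medians do not bear that out. It also cautioned that the split might be a hidden artifact, which was not tested here. In sum Muscle 1 had 302731 UMIs and Muscle 2 had 1222218, so that a gene with no UMI in Muscle 1 may still have had up to 9.91 UPM. The 5 corpus cells had only 4091 UMIs together, where even 3 UMIs make 733 UPM, and levels by library are given below for the cauda and vas deferens. The authors' removal of ambient RNA took a similar number of UMIs from each cell, 90 at the median in Muscle 1 and 87 in Muscle 2, which was 7.45% of the UMIs of Muscle 1 and 1.74% of those of Muscle 2. The part of this removal in the differences between the populations was not tested. Between the 4 libraries 43 cell barcodes recur, and 4 cells of Muscle 1 and none of Muscle 2 carry one of them.

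The main contrast between the 2 muscle populations lay in the ribosomal protein genes. These took 2.79% of the UMIs of Muscle 1 (2.73% to 2.84%) and 13.7% of those of Muscle 2 (13.6% to 13.8%), a 4.92-fold difference. Cauda cells had 2.99% in Muscle 1 and 14.7% in Muscle 2, vas deferens cells 2.73% and 13.5%, and corpus cells 4.99% and 13.2%. The populations thus lay apart in all 3 libraries, although the corpus values rest on 5 cells of Muscle 1 and 2 of Muscle 2. The authors cut the subclusters from these same counts, and separation between them is therefore a description and not an independent finding.

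Cell by cell, the ribosomal protein share ranged from 0% to 7.63% in Muscle 1, with a median of 2.25%. In Muscle 2 it ranged from 1.86% to 22.9%, with a median of 13.6%, and 229 of 240 cells lay above the highest Muscle 1 cell. Of the 11 that did not, 9 had fewer than 1000 UMIs. Among cells of 1000 to 4000 UMIs, 140 cells of Muscle 1 had 3.01% (2.94% to 3.08%) and 58 cells of Muscle 2 had 14.3% (14.1% to 14.5%), although the median depths in this window still differed, at 1479 and 2887 UMIs. Within Muscle 1 the share was 1.74% in the 66 shallowest cells and 3.49% in the 66 deepest, and in the 60 shallowest and 60 deepest of Muscle 2 it was 13.8% and 12.8%. Below 500 UMIs the populations met, since 7 of the 11 Muscle 2 cells there had a share no higher than that of the highest Muscle 1 cell.

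**Figure D2:**
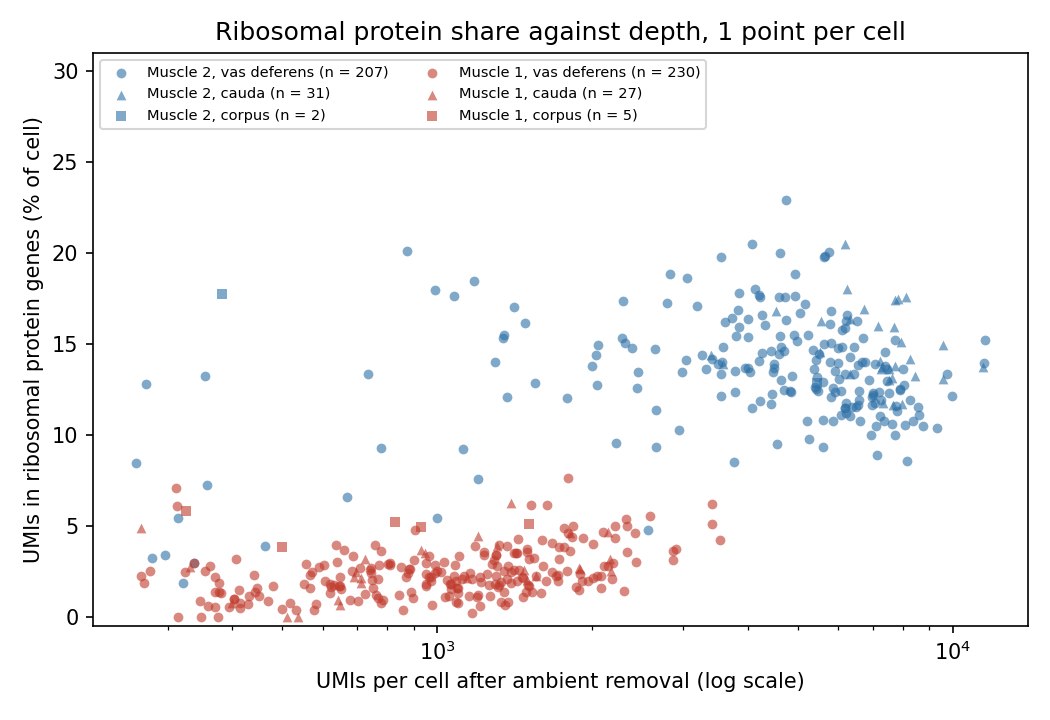
Share of each cell's UMIs that fell in ribosomal protein genes (percent, vertical) against its UMIs (log scale, horizontal), 1 point per cell, colored by population and shaped by library. The Muscle 1 cells reach no higher than 7.63%, and most Muscle 2 cells lie above them, including at depths where both occur.

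Other populations put the share in context. Only 2 of the 34 populations of the annotation had a lower one, PC12 at 2.29% and ClearKrt14 at 2.76%. Across all 34 populations the share went up with the logarithm of the median depth (Pearson's r 0.57, Spearman's rho 0.57), a description over populations that share 4 libraries. Populations with a median depth near that of Muscle 1 differed widely, from 2.29% in PC12 to 5.38% in PC07 at 1101 UMIs and 13.9% in PC05 at 924 UMIs. For the contractile list Muscle 1 ranked second of all populations, at 13.4%, after Muscle 2.

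Across all genes, 5817 had at least 20 UMIs in either muscle population. A ratio of 2-fold or more was called where the higher population had 20 UMIs or more, with a count of 0 raised to 3. By this rule 1063 genes, or 18.3%, were higher in Muscle 1 and 561, or 9.64%, were lower. Only the 3008 genes with at least 20 UMIs in Muscle 1 could be called higher, and the other 2809 reached that number in Muscle 2 only. The interval excluded equal levels for all 1063 called higher, which the rule ensures at these depths, and for 445 of the 561 called lower. A call of lower could rest on 20 UMIs in the deeper Muscle 2, so these counts do not compare the evidence. UPM is a share of the total, and the median log2 ratio over all genes compared was 0.50. When each ratio was taken relative to that median, 375 genes were higher and 1015 lower, with the authors' size factors 344 and 1061, and per UMI outside the ribosomal protein list 805 and 688. Of the genes called higher, 843 of the 886 with at least 5 UMIs in the cauda were also above equal levels there, and 369 of 504 called lower were below. In the vas deferens these were all 1063 and 560 of 561. Without the vas deferens library only 1608 genes reached 20 UMIs, with 94 higher and 385 lower, and 67 and 260 of these were called with it as well. Leaving out every cell with 2 or more UMIs of another type's markers, *Ckm* and *Tnnc2* included, left 84 cells of Muscle 1 and 14 of Muscle 2, in which only 579 genes could be compared and 225 were higher and 79 lower, 142 and 73 of them called in all cells as well.

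Ribosomal protein genes were nearly uniform in their direction. Of 81 compared, 79 were called lower in Muscle 1, none higher, and the median log2 ratio was -2.40. *Rps26*, a protein of the small subunit, stood farthest out. It had 98.7 UPM in cauda cells and 48.5 in vas deferens cells of Muscle 1, against 1685 and 1502 in Muscle 2. Both Muscle 1 values lay far below both of Muscle 2, and the pooled log2 ratio was -4.61 (-5.35 to -3.96) from 19 and 1873 UMIs. In cells thinned to 500 UMIs it was seen in 1.36% of Muscle 1 and 59.0% of Muscle 2 cells. *Rpl32*, of the large subunit, had 296 and 444 UPM in cauda and vas deferens cells of Muscle 1 against 2899 and 2746 in Muscle 2 (log2 ratio -2.71, -2.98 to -2.46). *Rpl12*, *Rpl15*, *Rpl35a* and *Rpl22* had log2 ratios from -3.61 to -3.47. The 2 genes not called were *Rps21*, at -0.87, and *Rpl7l1*, a ribosomal protein paralog, at 0.58 (-0.12 to 1.25). The most abundant, *Rpl41*, had 1483 UPM in Muscle 1 and 5878 in Muscle 2. Ribosomal protein genes have many processed copies in the genome, and the authors' counting ignored reads that aligned to several places, so that absolute levels of single members are uncertain.

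The annotated starts of these genes are shown since their messages are known to begin with a run of pyrimidines, the terminal oligopyrimidine tract, which ties their translation to growth signals. Each line gives 10 bases before and 20 bases from the RefSeq start in GRCm38.p6, 5′ to 3′, with capitals for a C within 5 bases of the start and the pyrimidines that follow it, where at least 4 do. The first 5 genes were far lower in Muscle 1, with a tract in 3 of them and none in *Rpl22* and *Tpt1*, and the last 2 were far higher. The other annotated start of *Rpl22* had no tract either.
Rps26: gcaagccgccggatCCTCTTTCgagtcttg
Rpl12: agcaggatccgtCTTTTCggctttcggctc
Atp5e: gtccgcgtaccccaCCCCTTCCgctactca
Rpl22: cctgggaaaagcaatagctggccgatcgtt
Tpt1: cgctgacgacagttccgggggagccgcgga
Pcdh7: acagcgctgcagatcccactgctccaacac
Son: gggataaaaggaattggccgctgcgcctcc
The windows are chr10:128626487-128626516 on the minus strand, chr2:32961702-32961731 on the plus strand, chr2:174464082-174464111 on the minus strand, and chr4:152325716-152325745, chr14:75845246-75845275, chr5:57718071-57718100 and chr16:91647814-91647843 on the plus strand. Of 27025 genes in the RefSeq table, 19.7% had such a tract at some annotated start. Starts were found for 75.3% of the ribosomal protein genes compared and for 79.8% of the genes called higher, under the 80% needed here, so the check of tracts over gene groups is void.

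Nuclear genes for the respiratory chain and ATP synthase followed, but less evenly. They took 2.78% of UMIs in Muscle 1 and 6.36% in Muscle 2, and 47 of 77 were called lower, 1 higher and 29 neither, with a median of -1.44. Among the 34 populations of the annotation Muscle 2 had the highest respiratory share, and Muscle 1 ranked 25 from the lowest. *Atp5e*, the epsilon subunit of ATP synthase, was at 65.8 and 89.5 UPM in cauda and vas deferens cells of Muscle 1 and at 771 and 1110 in Muscle 2 (-3.60, -4.22 to -3.05). *Atp5l*, the g subunit, was at 197 and 134 UPM against 1246 and 1233 (-3.15). *Ndufa2* of complex I and *Uqcrq* of complex III had no UMI in the cauda cells of Muscle 1, with 168 and 157 UPM in the vas deferens against 1232 and 999 in vas deferens cells of Muscle 2 (-2.97 and -2.82). *Cox7b* of complex IV was at 263 and 212 UPM against 1291 and 1208 (-2.47). Some longer subunits were higher or closer to level. *Ndufs1*, the largest subunit of complex I, was the one called higher, at 1.18 (0.51 to 1.83), and *Sdha*, the flavoprotein of complex II, was at 0.83 (0.40 to 1.24), whereas *Atp5b*, the catalytic beta subunit of ATP synthase, was at -0.51 (-0.74 to -0.29). *Cox6c*, the most abundant member, was at 6537 and 7562 UPM (-0.21, -0.28 to -0.14), with 3653 against 7250 in cauda cells and 6945 against 7657 in vas deferens cells.

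Of 17 translation factors, 8 were called lower and none higher (median -0.85). *Btf3* and *Naca*, the nascent polypeptide associated complex, were at -3.83 and -2.07, *Tpt1* at -2.77 and the elongation factor *Eef1a1* at -1.18, while *Eef2*, the factor that moves the ribosome along, was level at -0.11 (-0.38 to 0.14). Mitochondrial ribosomal proteins had 21 of 70 lower and 1 higher (median -0.64), and proteasome subunits 5 of 34 lower and 1 higher (median -0.38), beside 9.64% of all genes called lower. *Psma7*, of the proteasome core, was the lowest of its list at -2.33, and *Psmd3*, of its cap, the highest at 1.13.

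**Figure D3:**
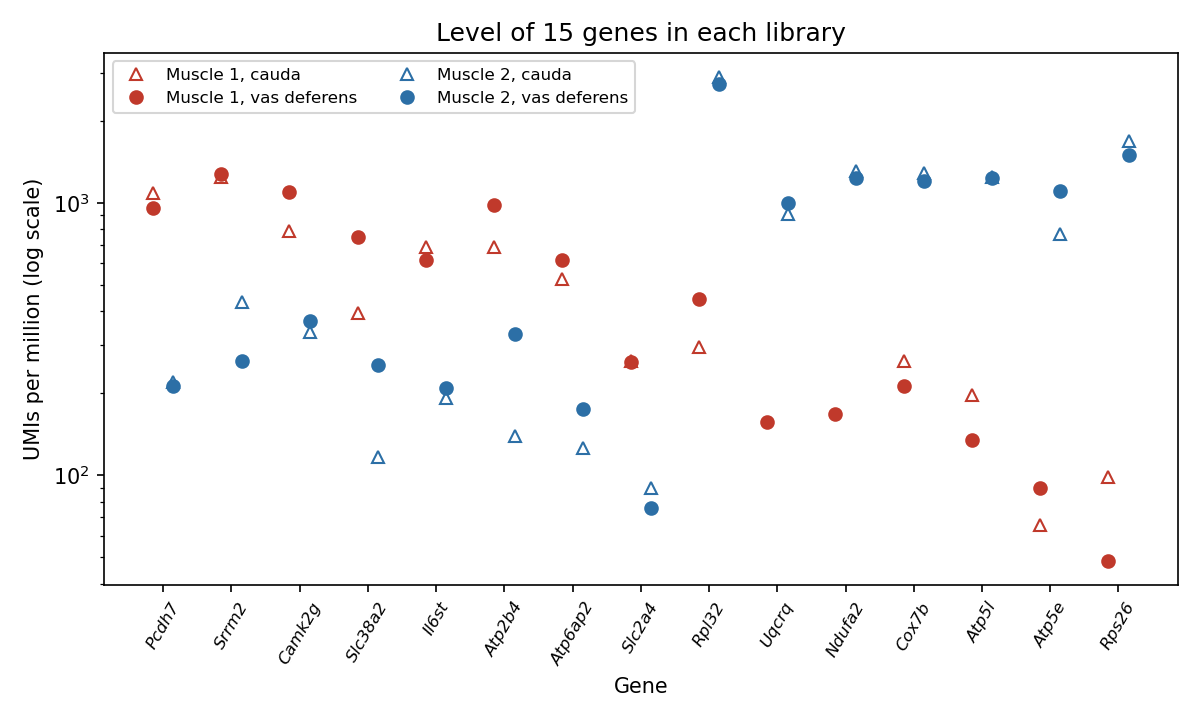
Levels in UPM (log scale) of 15 genes the study names for the 2 muscle subclusters, in the cauda and vas deferens cells of Muscle 1 and Muscle 2, 1 point per library. For each of the 8 genes named for Muscle 1 both Muscle 1 points lie above both Muscle 2 points, for the 7 shown of those named for Muscle 2 they lie below, and *Uqcrq* and *Ndufa2*, at 0 in cauda cells of Muscle 1, are not drawn there.

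The contractile genes were not shared out in the same way. The list of 20 took 13.4% of UMIs in Muscle 1, or 0.84 times its share in Muscle 2. Of the 20, 4 were called lower, 2 higher and 14 neither, beside 9.64% and 18.3% of all genes called lower and higher. Their median log2 ratio was -0.14, or -0.64 relative to the median gene, and 17 of the 20 lay below that gene. *Actg2* was level, at 0.00 (-0.05 to 0.04). *Mylk* had 17478 UPM in cauda cells and 25408 in vas deferens cells of Muscle 1 against 13152 and 21569 in Muscle 2, a log2 ratio of 0.29 (0.25 to 0.33). *Acta2* was at 0.20, *Acta1* at 0.34 and *Myh11* at 0.64. All 3 intervals excluded equal levels, but relative to the median gene *Mylk*, *Acta2* and *Acta1* fall on the lower side, at -0.21, -0.31 and -0.16, and with the authors' size factors as well. The 4 called lower bind actin, are part of myosin or act on its phosphatase. *Tagln*, the actin-binding transgelin, had 5957 and 5662 UPM in Muscle 1 against 14662 and 11618 in Muscle 2 (log2 interval -1.17 to -1.03). *Tpm2*, the beta tropomyosin, was at -1.05 and *Myl6*, the essential light chain of myosin, at -1.29. *Ppp1r14a*, an inhibitor of myosin phosphatase, was at -1.78, from fewer than 20 UMIs in Muscle 1. Only 1 of these UMIs came from the vas deferens cells, and the others came from the epididymal cells. This pooled ratio rests on few UMIs and does not describe the regions separately. *Ppp1r12a* and *Ppp1r12b*, the targeting subunits of myosin phosphatase, were higher, at 1.07 (0.95 to 1.18) and 1.83 (1.29 to 2.36).

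Genes of calcium handling and membrane excitation lay higher. Of 20 compared, 14 were called higher and 1 lower, beside 18.3% of all genes or 1063 of the 3008 able to be called higher. The median log2 ratio of the 20 was 1.28, or 0.77 relative to the median gene. *Atp2a2*, the calcium pump of the sarcoplasmic reticulum, had 3917 and 5226 UPM in cauda and vas deferens cells of Muscle 1 and 1277 and 2279 in Muscle 2 (1.27, 1.18 to 1.36). *Atp2b4*, the calcium pump of the plasma membrane, had 691 and 980 UPM against 139 and 329 (1.66). *Slc8a1*, the sodium-calcium exchanger, was at 1.53, the inositol trisphosphate receptor *Itpr1* at 1.43, the ryanodine receptors *Ryr2* and *Ryr3* at 1.01 and 2.04 and the L-type channel *Cacna1c* had 168 and 77.7 UPM. *Camk2g* had 790 and 1100 UPM in Muscle 1 against 336 and 368 in Muscle 2 (1.55, 1.34 to 1.76). The small calmodulin genes *Calm3* and *Calm2* went the other way. *Calm3* was called lower at -1.16, and *Calm2* was at -0.48 (-0.60 to -0.37).

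Of 17 genes of attachment and smooth muscle regulation, 8 were called higher, none lower and 9 neither. The share over all genes was 18.3%, or 1063 of the 3008 able to be called higher. The median of the 17 was 0.99, or 0.49 relative to the median gene. *Itgb1*, the beta 1 integrin, had 3324 and 2699 UPM in Muscle 1 against 1125 and 868 in Muscle 2 (1.58, 1.45 to 1.71). *Flna*, *Vcl*, *Tln1* and *Dmd*, which link actin to the membrane, lay between 1.22 and 1.47. The transcription factor *Srf* and its partner *Myocd* were not called, at 0.18 (-0.43 to 0.74) and 0.99 (0.32 to 1.63). Of 18 matrix genes 12 were higher and none lower (median 1.39, or 0.89 relative to the median gene). Among them were the basement membrane genes *Col4a1* at 1.38, *Hspg2* at 1.72 and *Lama4* at 1.82. *P2rx1*, the ATP-gated channel through which sympathetic nerves excite the vas deferens, had 889 and 1566 UPM in Muscle 1 against 453 and 612 in Muscle 2 (1.35, 1.17 to 1.52). Of 11 receptors 5 were called higher, none lower and 6 neither, with a median of 0.38 relative to the median gene. *Gfra4*, the receptor after which Muscle 2 is named in the annotation, lay on the other side at 39.6 and 75.3 UPM (-0.93, -1.93 to -0.05).

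Of 56 solute carriers outside the *Slc25* family, 28 were called higher, none lower and 28 neither, with a median of 1.18 and a range from -0.26 to 2.39. Over all genes 18.3% were called higher, or 1063 of the 3008 able to be. Of 14 compared from the *Slc25* family, the carriers of the inner mitochondrial membrane, 2 were called higher and 2 lower, with a median of 0.12 and a range from -1.54 to 1.25. The ranges overlap, and the difference between these groups was not tested. *Slc38a2*, a transporter of neutral amino acids, had 395 and 749 UPM in Muscle 1 against 117 and 254 in Muscle 2 (1.63). *Slc2a4*, the insulin-responsive glucose transporter, had 263 and 261 UPM against 89.6 and 75.5 (1.75, 1.30 to 2.19), and *Slc2a1*, the basal one, was at 2.30 from 28 and 23 UMIs. *Slc25a4*, the ADP/ATP carrier, was at -0.83 (-1.02 to -0.65).

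Genes for entry into the endoplasmic reticulum split within the same complex. Of 22 compared, 11 were higher and 3 lower, beside 18.3% and 9.64% of all genes, or 1063 of the 3008 able to be called higher. The median of the 22 was 0.99, or 0.49 relative to the median gene. *Sec61a1*, the large channel subunit, was at 1.69 (0.85 to 2.51), while the small subunits *Sec61b* and *Sec61g* were at -1.82 and -2.23. *Ssr3* and *Ssr4*, of the translocon-associated complex, were at 1.27 and -1.56. The chaperone *Hspa5* had 2205 and 1420 UPM in cauda and vas deferens cells of Muscle 1 and 672 and 403 in Muscle 2 (1.73, 1.54 to 1.91).

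Of the genes called higher, those with the largest lower bound of the ratio were *Gpr123*, *Edn2*, *Ap3m1*, *Pcdh7*, *Tmbim6* and *Srrm2*. *Pcdh7* had 1086 and 958 UPM in cauda and vas deferens cells of Muscle 1 and 220 and 212 in Muscle 2 (2.18, 1.93 to 2.43), and after thinning it was seen in 39.8% of Muscle 1 (33.3% to 46.6%), 13.5% of Muscle 2 (9.39% to 18.7%) and 0.893% of endothelial cells. *Edn2*, the peptide endothelin 2, had 165 and 451 UPM against 22.4 and 76.5 (2.65, 2.24 to 3.07). *Srrm2* and *Son*, large proteins of the nuclear speckles where splicing factors gather, had 1251 and 1279 UPM and 1382 and 1215 UPM in Muscle 1, against 435 and 264 and 417 and 289 in Muscle 2. Their log2 ratios were 2.10 (1.89 to 2.31) and 1.98 (1.77 to 2.19). Of the 32 splicing genes as a whole, 9 were higher and 2 lower, and the median of 0.60 was close to that of all genes. The kinase *Prkca*, the transporter *Slc22a3*, *Lpcat3*, *Rnf121* and *Cd97* completed the 12, with ratios from 2.07 to 2.65. Of these, *Rnf121* turned to -0.21 without cells holding 2 or more UMIs of another type's markers. That setting left 84 cells of Muscle 1 and 14 of Muscle 2. *Rnf121* had only 44 and 33 UMIs in all cells, so this value rests on few UMIs. The study named *Atp6ap2*, *Il6st*, *Slc2a4*, *Atp2b4* and *Slc38a2* for this subcluster as well, and all 8 of its genes were called higher here, which is no independent evidence since they were picked on these cells.

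Immediate early genes, whose messages appear within minutes of a stimulus such as dissociation, took 1.18% of UMIs in Muscle 1 and 0.582% in Muscle 2. Of 20 compared, 7 were called higher and 1 lower, beside 18.3% of all genes or 1063 of the 3008 able to be called higher. The median of the 20 was 0.74, or 0.24 relative to the median gene and 0.20 with the authors' size factors. *Jun* had 592 and 1435 UPM in cauda and vas deferens cells of Muscle 1 against 341 and 471 in Muscle 2 (1.56, 1.37 to 1.74), *Fos* was at 1.22 and *Cyr61* at 1.93, and *Atf3* was lower at -1.05. Of 11 heat shock genes, *Hspa1a* was higher at 1.66 and *Hspe1* lower at -2.20. Of 15 genes of glycolysis and glucose entry, 5 were called higher and none lower, beside 18.3% of all genes or 1063 of those 3008. The median of the 15 relative to the median gene was 0.09.

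**Figure D4:**
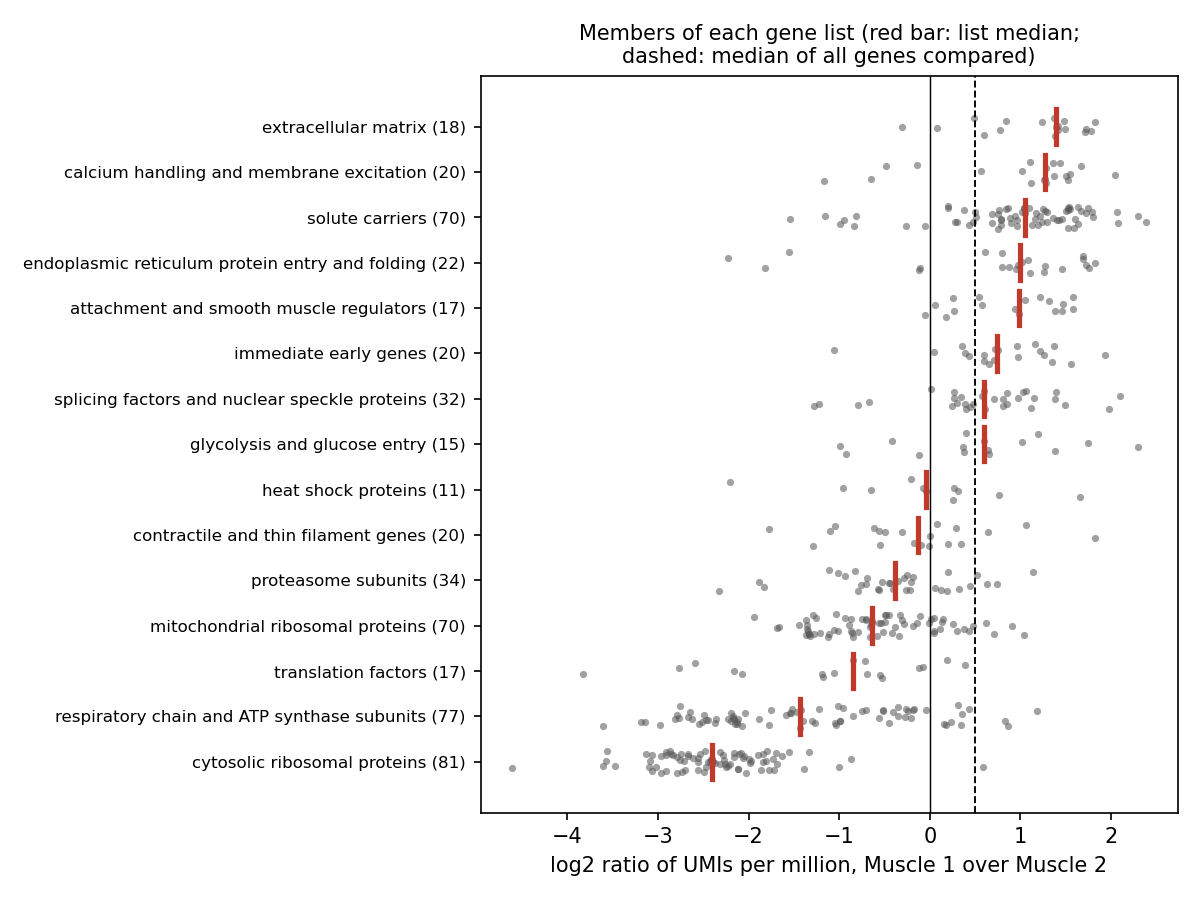
Log2 ratio of UPM, Muscle 1 over Muscle 2, for each compared member of 15 gene lists, 1 point per gene, with a red bar at the list's median, a solid line at equal levels and a dashed line at the median of all genes, 0.50. Ribosomal protein and respiratory genes lie to the left, with medians of -2.40 and -1.44, and calcium handling and matrix genes to the right, with medians of 1.28 and 1.39.

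Coding length differed between the genes called. Those called lower had a median coding length of 495 bases and those called higher 1977, against 1198.5 for all compared. The median log2 ratio was -0.59 for the 776 genes with coding regions up to 500 bases, 0.14 for the next 1571 of up to 1000 bases, and 1.15 for the 341 genes longer than 4500 bases. Across 5796 genes the ratio went with the logarithm of coding length (Pearson's r 0.54, Spearman's rho 0.54), and outside the ribosomal and respiratory lists it did so in 5638 genes with r 0.51. Genes are not independent replicates, and these correlations describe the 2 pooled populations only.

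Inside single lists the relation varied. Among the 77 respiratory genes Spearman's rho with coding length was 0.53, and the 11 members over 1000 bases had a median of 0.34 against -2.11 for the 47 up to 500 bases. It was 0.84 over the 20 contractile genes, 0.51 over the 34 proteasome subunits and 0.47 over the 22 endoplasmic reticulum genes. Among ribosomal proteins, most of them short, it was 0.24. It was 0.08 over the 11 heat shock genes, 0.11 over the 15 of glycolysis and -0.22 over the 20 immediate early genes. Attachment, calcium handling and matrix genes were long, with median coding lengths of 2805, 2989.5 and 4375.5 bases and median ratios of 0.99, 1.28 and 1.39. All genes compared of 2000 to 3000 bases had a median of 0.88, and those of 3000 to 4500 bases 0.96. The part of length in the ratios of these lists was not tested.

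Median ratios were higher for proteins with a hydrophobic stretch in each class of coding length, although the quartile ranges overlapped in each. A gene was counted if a window of 19 residues of its protein had a mean Kyte-Doolittle hydropathy of at least 1.6, a mark of segments that enter or cross membranes. Such genes were 50.2% of those called higher, 11.3% of those called lower and 28.7% of all compared. In the shortest class the median log2 ratio was -0.08 with such a segment and -0.77 without. Between 1000 and 1500 bases it was 0.92 and 0.39, and over 4500 bases it was 1.26 and 1.01. The medians lay closest between 3000 and 4500 bases, at 1.07 and 0.92.

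**Figure D5:**
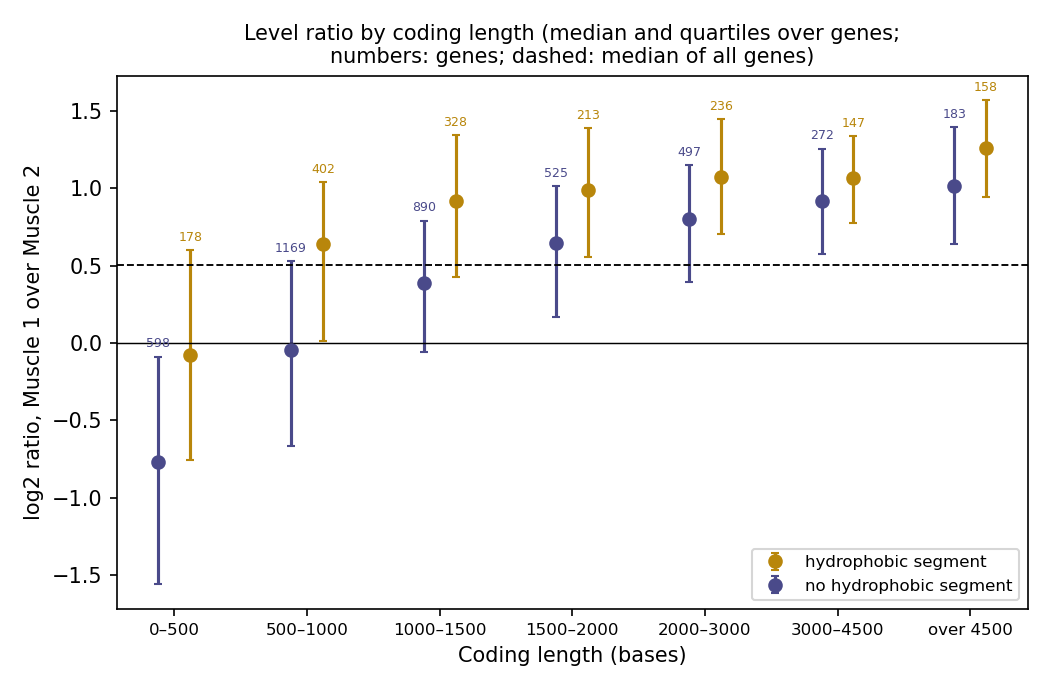
Median log2 ratio, Muscle 1 over Muscle 2, by coding length in bases, with bars from the lower to the upper quartile of genes and the number of genes above each, for genes whose protein has a hydrophobic segment and for the others. The medians go from -0.77 to 1.01 without such a segment and from -0.08 to 1.26 with one.

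Basal cells gave a second contrast of shallow and deep cells of 1 type in the same libraries. BasalLowUM, 315 cells with a median of 900 UMIs, had 7.00% of its UMIs in ribosomal protein genes, and Basal, 917 cells with a median of 5654, had 24.7%. Over 5405 genes with at least 20 UMIs in both contrasts, the log2 ratios of muscle and basal cells had a Pearson's r of 0.55 and a Spearman's rho of 0.52. Of 945 genes higher in Muscle 1, 237 were also higher in BasalLowUM and 12 lower, where 8.40% of the genes compared were higher in BasalLowUM and 11.2% lower. Of 532 genes lower in Muscle 1, 247 were also lower in BasalLowUM and 3 higher. The shared genes were 52.2% of those higher and 40.6% of those lower in BasalLowUM. *Hspa5*, *Son*, *Slc38a2* and *Atp6ap2* were at 1.92, 1.76, 1.61 and 2.22 in basal cells and at 1.73, 1.98, 1.63 and 1.86 in muscle cells. *Camk2g* and *Slc2a4* were at 0.31 (-0.85 to 1.29) and 0.28 (-0.82 to 1.21) in basal cells against 1.55 and 1.75 in muscle cells. *Rps26* was at -1.59 in basal and -4.61 in muscle cells, and *Srrm2* at 0.58 and 2.10. Coding length went with the basal ratio as well, with rho 0.32 and medians of -0.33 up to 500 bases and 0.80 over 4500.

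Shallow and deep cells inside 1 muscle population differed less, but they also lay closer in depth than the populations compared above. The quartiles of depth were 3573 and 6894 UMIs in Muscle 2 and 649 and 1497 in Muscle 1. The part of depth was not tested. Between the Muscle 2 cells under and over their median depth, rho with coding length was 0.22, the ribosomal share was 14.5% and 13.3%, and none of 81 ribosomal protein genes was called lower in the shallower cells. Between the Muscle 1 cells under and over their median, rho was 0.07 and the share 2.10% and 3.06%, with 16 of 72 ribosomal protein genes called lower.

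Against all non-muscle populations, 97 of 3008 genes with at least 20 UMIs in Muscle 1, or 3.22%, were at least 4 times above the highest of them. Of these, 9 were contractile genes. Of the 97, 36 met the same rule in Muscle 2, which was 37.1% of the Muscle 1 genes and 69.2% of the 52 of Muscle 2. *P2rx1* came first, at 83.0 times StromalIL6 (35.3 to 257). *Ckm* followed at 41.0 times (21.4 to 90.2), *Sost*, a secreted inhibitor of Wnt signaling best known from bone, at 33.6 times (19.4 to 63.5), and *Pcp4*, a small regulator of calmodulin, at 19.8 times (16.3 to 24.3). *Kcnc1*, a voltage-gated potassium channel, *Ldb3* and *Acta1*, of the Z-disc and thin filament of striated muscle, and *Bves*, a membrane protein of heart and skeletal muscle, completed the first 8. *Sost* had 724 and 1670 UPM in cauda and vas deferens cells of Muscle 1 and 367 and 608 in Muscle 2. *Pcp4* was lower in Muscle 1, at 7475 UPM against 16483.

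Within Muscle 1, the 230 cells of the vas deferens were compared with the 32 of the epididymis. Of 2690 genes with at least 20 UMIs on either side, 451, or 16.8%, were called higher in the vas deferens and 41, or 1.52%, lower. The sides differ in reach, since the epididymal cells hold 34473 UMIs and the vas deferens cells 268258, and the interval excluded equal levels for 86 of the 451 and for all 41. Without the cauda, 63 were higher and 5 lower, against the 5 corpus cells. None of the 12 muscle markers was called. *Actg2* came nearest, at 16279 UPM in the vas deferens and 8267 in the epididymis (log2 0.98, 0.80 to 1.16), whereas *Acta2* was at -0.10 (-0.21 to 0.02) and *Pcdh7* at -0.08 (-0.60 to 0.47).

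Several of the genes that led this comparison are abundant in the epithelium beside the muscle. *Akr1b7*, an aldo-keto reductase, had 764 UPM in the vas deferens cells of Muscle 1 and 1 UMI in the epididymal ones (26.3 times, 4.68 to 1046), and 51317 UPM in the principal cells of the vas deferens. *Cd52*, lower in the vas deferens at 425 against 1770 UPM, had 46644 UPM in principal cells of the cauda and 20712 in those of the vas deferens. The part of that RNA in these values was not tested. Other genes were low in principal cells. *Hhip*, a hedgehog-binding protein, had 589 UPM in the vas deferens and 116 in the epididymis (5.08 times, 1.94 to 18.9). It had 2.56 in the principal cells of the vas deferens. *Mmd* and *Nptx1* had 78 and 69 UMIs against none, or 3.34 and 2.96 times more with 3 UMIs as the floor. The lower bounds of their intervals were 2.65 and 2.34 times. *Igfbp2*, which binds insulin-like growth factors, went the other way, with 1 UMI in the vas deferens and 28 in the epididymis (218 times, 36.0 to 8910), and 13 and 81 UMIs in Muscle 2. The transcription factors *Nr4a2*, *Nfil3* and *Cebpb* were 6.52, 4.39 and 2.87 times higher in the epididymal cells, and in Muscle 2 they had the same direction. *H2afz*, a histone variant, was 5.28 times higher in the vas deferens (3.36 to 8.82). *Gstm1*, *Ugp2* and *Rpl7* also led the vas deferens genes, and *Ifitm3*, *Rplp1* and *Gpx4* the epididymal ones.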

How the data were processed

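The deposited table holds counts of UMIs for 16892 genes in 8880 cells. The authors aligned the reads to mm10 (the GRCm38 assembly) with HISAT2 2.0.4, counted UMIs on RefSeq genes with ESAT, ignoring reads with several alignments, filtered cells on total UMIs and removed ambient RNA with a modified SoupX. The deposited cell table, which gives the library, cluster, subcluster and UMIs before that removal, was used without re-clustering, and its size factors (a score by the authors) entered an alternative.

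Members, gene lists and comparisons were chosen with earlier results of these data known. UMIs were summed per population (Python 3.11.15, numpy 2.4.6, scipy 1.17.1). Levels have exact Poisson, ratios exact conditional binomial and shares Clopper-Pearson 95% intervals, which do not cover variation between animals. Doublets were called by simulation with neighbours in each library, and 2 Muscle 1 and 11 Muscle 2 cells were marked and kept. Coordinates and start sequences came from RefSeq (GRCm38.p6), and lengths and proteins from GENCODE M21 for 16745 genes. Mitochondrial genome genes and the nuclear long non-coding RNAs of the lists were not analysed here, and 2 genes of the lists are not reported here.

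Genes named are the study's subcluster genes, the markers, the 12 highest and lowest ratios by the interval bound nearest to equal levels among genes with at least 50 UMIs (8 in other comparisons), and from each list its most abundant, extreme and called members. *Sost* levels by library, *Srf*, *Myocd*, *Eef2*, *Cox6c* and the level members of lists were added after their values were seen. The calculation was tested on simulated data.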

Additional observations from a re-analysis of the deposited data

Results flagged for a closer look

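Summed as a list, the 12 muscle markers moved in opposite directions in the 2 libraries with most muscle cells. Their summed log2 ratio, Muscle 1 over Muscle 2, was -0.11 in the cauda (-0.17 to -0.04) and 0.06 in the vas deferens (0.04 to 0.08). The difference between the libraries was not tested, with 1 library each, and both values are far smaller than the ratios of the ribosomal protein genes.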

How the results depend on the processing

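No paired analysis was possible because no replicate numbers exist. Both muscle populations occur in 3 libraries, whose values stand side by side above. Of 112 values for the main comparisons under other settings, 58 stayed within the spread or count limit. Among these only list shares and depth could be marked as turned, and none was. Counts of genes could not be so marked. Lower genes outnumbered higher ones relative to the median gene, with size factors, at 4-fold, without the vas deferens and with at least 50 UMIs (426 and 397). In the other settings higher ones were more numerous. Of 904 values for single genes and lists 12 changed direction. The cause was not tested for any. Without the vas deferens the summed log2 ratios became -2.19 (ribosomal), -1.46 (respiratory), -0.38 (contractile) and -0.15 (muscle markers), 94 genes were higher, the depth ratio was 7.87 and *Acta2* was at -0.058; without the cauda the depth ratio was 4.51, and 63 and 5 genes differed between vas deferens and epididymis. In the order ribosomal, respiratory and contractile, the sums were -2.19, -1.10 and -0.23 with at least 1000 UMIs per cell (depth ratio 3.79), -2.25, -0.98 and -0.10 in 1 range of UMIs (304 genes lower), and -2.63, -0.92 and -0.22 without cells with another type's markers (225 higher, 79 lower, *Rnf121* at -0.21). Without called doublets the contractile sum was -0.28, and per-cell means gave -2.46 and -1.25 for the ribosomal and respiratory lists. Settings chosen after seeing the data gave -2.35 and 688 higher genes, with *Vim* at 0.0095, when *Ckm* and *Tnnc2* did not count as markers, and -2.20, -1.06 and -0.19 in the larger shared cluster alone. Higher and lower genes numbered 1707 and 913 at 1.5-fold, 76 and 191 at 4-fold, 375 and 1015 relative to the median gene, and 344 and 1061 with the authors' size factors; 1879 and 397 were higher with minimums of 10 and 50 UMIs. With size factors and relative to the median gene, *Acta1* was at -0.20 and -0.16, *Acta2* at -0.34 and -0.31, *Mylk* at -0.25 and -0.21 and *Ckm* at -0.052 and -0.017. *Pcdh7* was seen in 59.3% of cells at 1000 UMIs and 58.8% without thinning. Against non-muscle populations 298 genes passed 2-fold, 32 passed 8-fold and 932 passed 4-fold over their median. Vas deferens and epididymis differed in 783 and 81 genes at 1.5-fold and 71 and 6 at 4-fold. Hydrophobic segments were in 40.1% of higher and 6.99% of lower genes at a threshold of 1.8 (21.3% of all), 41.4% and 7.89% without the first 40 residues (23.6%), and 42.6% of genes higher at 1.5-fold. With 50 UMIs the correlation with basal cells was 0.67. Leaving out the caput changed nothing, since it holds no muscle cell. The depth of Muscle 1 limits genes under 20 UMIs, and 2809 genes reached that number in Muscle 2 only.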

Other observations

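*Vim*, the intermediate filament of mesenchymal cells, had 2 UMIs in all of Muscle 1 and 148 in Muscle 2, a log2 ratio of -4.20 (-7.26 to -2.32), of which 98 came from the 2 corpus cells of Muscle 2. The ratio turned to 0.0095 without cells holding 2 or more UMIs of another type's markers, *Ckm* and *Tnnc2* not counted. That setting left 181 cells of Muscle 1 and 85 of Muscle 2. Muscle 1 had at most its 2 *Vim* UMIs there, so this value rests on few UMIs and shows no reversal. *Vim* was chosen after its values were seen. The lowest 12 genes of the comparison also held *Usmg5*, a small subunit of ATP synthase, at -3.55, the ribosomal protein genes *Rps24*, *Rpl26* and *Rps15a* between -3.13 and -3.06, and *Gm13826*, a predicted gene, at -3.59.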
